A study of Homo sapiens with 39 samples.

Results

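The comparison described here is between 2 HCT116 lines that produce the P2 and the P1 form of hepatocyte nuclear factor 4 alpha (HNF4A) with the same short C-terminus: isoform 9 (P2) and isoform 3 (P1). It used 6 libraries of the 39 in the series, the 3 of isoform 9 and the 3 of isoform 3, chosen by their labels. HCT116 is a human colorectal cancer cell line, and its Flp-In T-REx derivative holds a defined integration site for a doxycycline-switched gene. In the isoform 3 group the cells carried HNF4alpha3 fused to GFP, in the isoform 9 group HNF4alpha9 fused to GFP, and the parental group carried neither. All 3 groups received 2.5 µg/ml doxycycline for 48 h. Until induction, selection was with blasticidin plus zeocin for the parental cells and with blasticidin plus hygromycin B for both lines. No line with GFP alone was used here, and each isoform is represented by 1 stable line, so an isoform and the line that carries it cannot be told apart. Nothing in the labels says that the 3 libraries of a line came from separate cultures. The limma p-values measure the spread between libraries of a group, pooled over all 39 libraries, and this spread may be technical.

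HNF4A is a nuclear receptor that binds DNA as a homodimer and drives genes of the differentiated liver, gut, kidney and pancreas. Its gene has a pair of promoters. Transcripts from P1 encode an N-terminal activation domain, AF-1, which the transcripts from P2 lack, and alternative splicing at the other end gives the C-terminal forms. Adult liver makes mostly P1 forms, and colon epithelium makes both.

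The reference transcripts that match these forms, HNF4A-205 for the P1 form and HNF4A-208 for the P2 form in GENCODE 29 (GRCh38), share 7 of their 8 coding exons and differ in the first. They are shown because this exon is the coding difference between the 2 forms. The construct sequences themselves were not used here. The P1 first coding exon lies at chr20:44401373-44401487 and the P2 one at chr20:44355805-44355853, both on the plus strand, and capitals mark the start codon.
HNF4A-205, P1: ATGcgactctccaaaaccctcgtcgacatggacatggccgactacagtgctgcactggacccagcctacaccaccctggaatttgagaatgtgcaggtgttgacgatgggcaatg
HNF4A-208, P2: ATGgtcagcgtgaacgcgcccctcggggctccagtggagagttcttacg
The P1 exon gives 115 coding bases and the P2 exon 49. The whole coding sequence has 417 codons in the P1 transcript and 395 in the P2 transcript, a difference of 22.

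HNF4A mRNA, summed over its 12 isoform rows, was at 406.95, 833.45 and 771.79 TPM (the authors' length-scaled transcript abundance, relative to the whole library) in isoform 3 replicates 1 to 3. In isoform 9 it was at 807.8, 973.91 and 1063.4 TPM, and in the parental cells between 30.8 and 31.9 TPM. Both lines were far above the parental cells, the 2 lines overlapped, and replicate 1 of isoform 3 had 0.507 times the mean of the other 2 isoform 3 libraries. The means were 670.7 TPM ± 230.5 (SD, n = 3) in isoform 3 and 948.4 TPM ± 129.7 (SD, n = 3) in isoform 9, a ratio of 1.41, and 1.18 without replicate 1 of isoform 3. An exact two-sided permutation test of this difference gave p = 0.2, where 3 against 3 libraries cannot go below 0.1. Amount and form of HNF4A therefore cannot be fully told apart between these lines, least of all in replicate 1. The main counts and most called genes named below are given with and without that library.

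**Figure D1:**
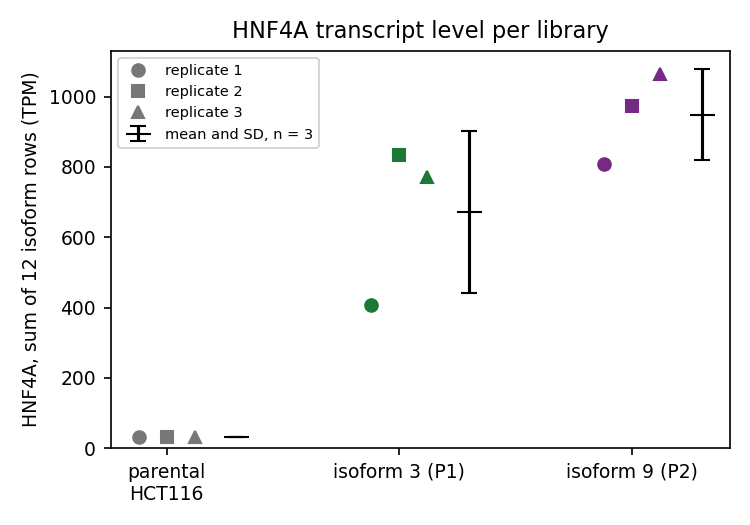
HNF4A level in each library, as the sum of its 12 isoform rows in TPM, for parental HCT116 and the isoform 3 and isoform 9 lines; symbols give the replicate number and the bars the mean and SD (n = 3). Replicate 1 of isoform 3, at 406.95 TPM, lies below the other libraries of both lines.

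Most genes that differed by a large amount were lower in isoform 9, while smaller differences were spread evenly over both directions. Among the 15002 genes tested, 2812 had an adjusted p under 0.05 with no limit on size, 1430 higher and 1382 lower in isoform 9. Differences are on the log2(TPM + 1) scale, which understates changes of genes at low TPM, and a gene was called where limma gave a Benjamini-Hochberg adjusted p under 0.05 and the difference was at least 1. By this rule 84 genes (0.56% of those tested) were called, 65 lower in isoform 9 (0.433%) and 19 higher (0.127%). Without replicate 1 of isoform 3 there were 90 lower (0.6%) and 20 higher (0.133%). Of the 84 genes, 73 were called both ways in the same direction, 61 lower and 12 higher, and no gene was called in opposite directions. Some rows hold the same values, and with repeated rows entered once 80 genes were called, 65 lower and 15 higher. The 3 libraries of each line did not overlap for 82 of the 84 called genes, against 24% of all tested genes. The median difference over all tested genes was 0.03.

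The 65 lower genes were grouped by how each line stood against the parental cells. These comparisons share libraries with the one above, so the groups are a description and support nothing. In 27 of the 65, isoform 3 was called higher than the parental cells (97 such genes, 0.647%, among all tested, and 23 lower, 0.153%) and isoform 9 was not called lower. In 18 others isoform 9 was called lower than the parental cells (66 such genes, 0.44%, and 57 higher, 0.38%) while isoform 3 was not called. The other 20 had neither call. Without replicate 1 the 3 groups held 41, 18 and 31 of the 90 lower genes.

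**Figure D2:**
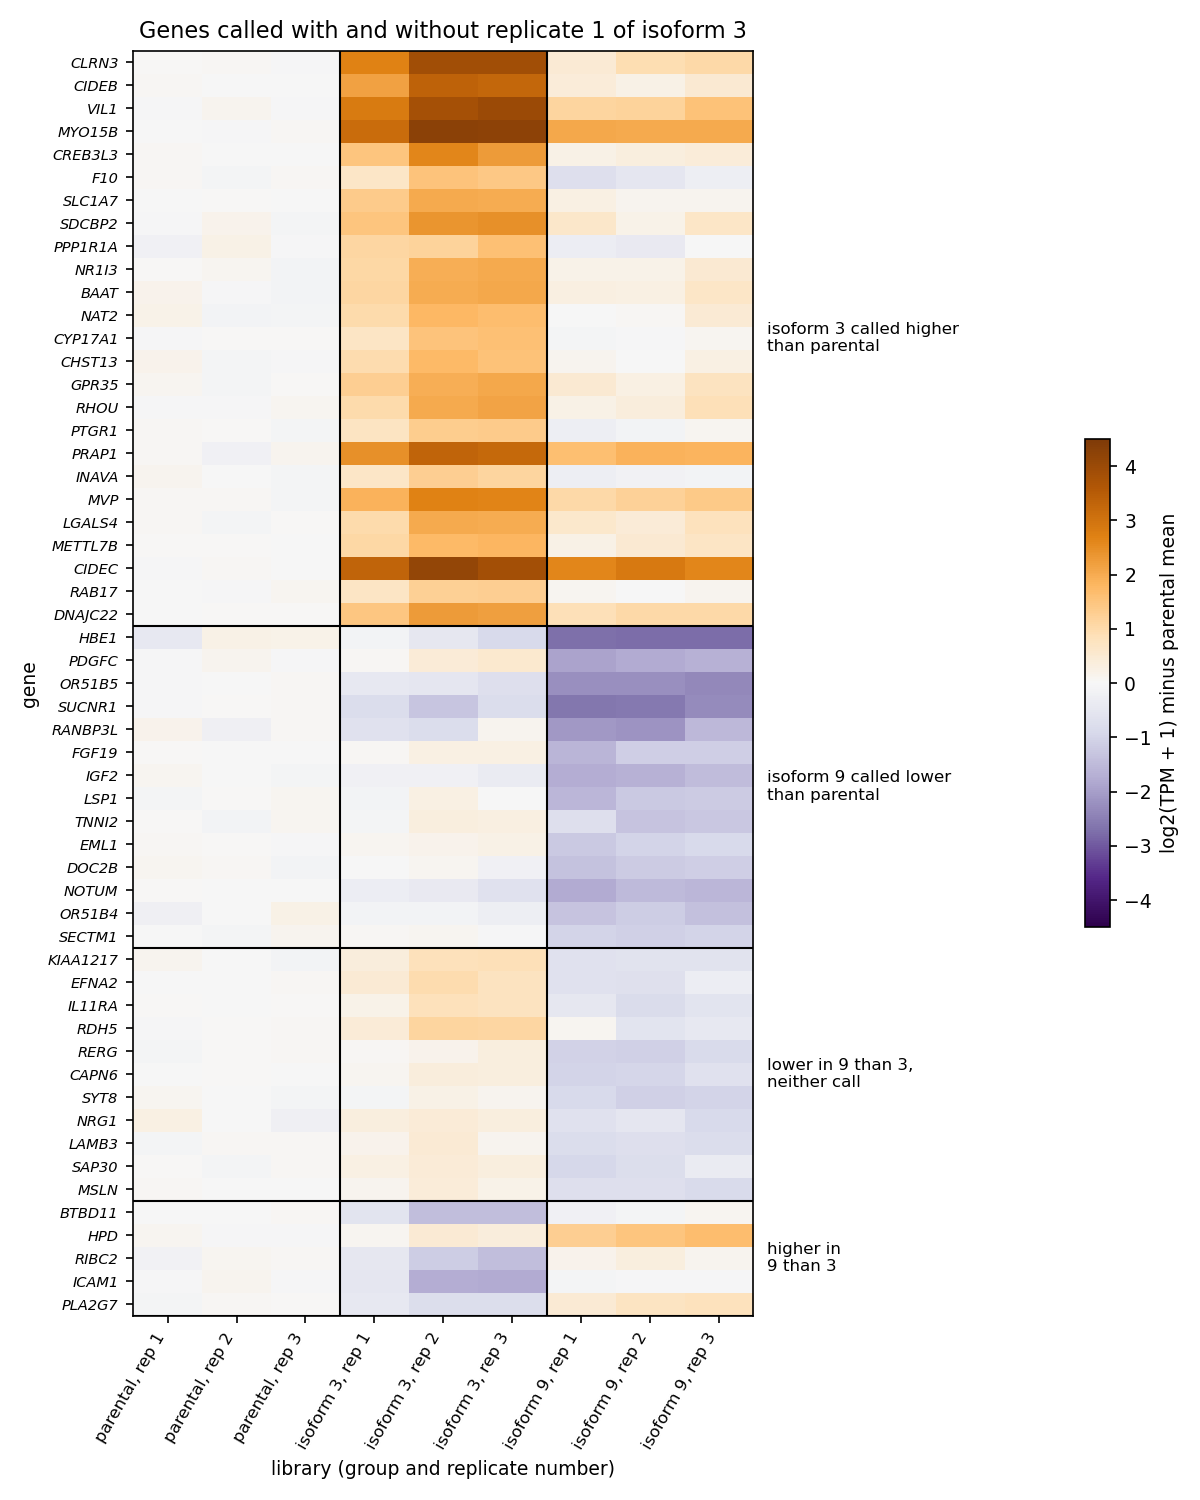
Genes called with and without replicate 1 of isoform 3 (55 of the 73 genes; most of those left out are uncharacterised LOC and LINC genes, tRNAs and other small RNAs), 1 row per gene and 1 column per library; colour is log2(TPM + 1) minus the parental mean. The upper 25 rows are orange in isoform 3 and paler in isoform 9, and the next 14 rows are mostly near white in isoform 3 and purple in isoform 9.

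The genes of the first group were raised in isoform 3 and lower in isoform 9. Those described here have known roles in intestine or liver or were among the lowest differences, and the group also holds others, such as MVP, RHOU and PTGR1. In 21 of the 27 isoform 9 was not called against the parental cells, and in 6 it was called higher than them as well. VIL1 encodes villin, an actin bundler of the microvillus core. It was at 9.91, 20.7 and 23.4 TPM in isoform 3, at 2.43, 2.51 and 3.54 TPM in isoform 9, and between 0.482 and 0.683 TPM in the parental cells. The 3 groups did not overlap. VIL1 was lower in isoform 9 by a log2 difference of -2.24 ± 0.17 (SE; limma adjusted p = 4.43e-11), and -2.60 without replicate 1 of isoform 3.

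CLRN3 encodes clarin 3, a member of a small family of membrane proteins. Its level was 6.06, 15.3 and 15.1 TPM in isoform 3 and 0.522, 1.10 and 1.27 TPM in isoform 9, with at most 0.141 TPM in the parental cells. All isoform 3 libraries lay above all isoform 9 libraries, by a log2 difference of -2.67 ± 0.19 (SE; limma adjusted p = 3.15e-11) for isoform 9 minus isoform 3, and -3.07 without replicate 1.

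CIDEB and CIDEC, members of the CIDE family of lipid droplet genes, were in this group, while CIDEA was at 0 TPM in both lines. CIDEB, which acts in droplet fusion and lipoprotein lipidation in liver and intestine, was at 13.7, 32.3 and 30.6 TPM in isoform 3 and at 3.35, 2.83 and 3.64 TPM in isoform 9, close to the parental 2.20 to 2.42 TPM. Its log2 difference was -2.55 ± 0.18 (SE; limma adjusted p = 1.75e-11), and -2.93 without replicate 1 of isoform 3. CIDEC, the adipocyte and steatotic liver member of the family, differed from CIDEB in that it rose over the parental cells in both lines. It was at most 0.125 TPM in the parental cells, 9.70, 17.8 and 14.5 TPM in isoform 3 and 5.53, 6.89 and 5.62 TPM in isoform 9. The lines did not overlap, and the log2 difference between them was -1.06 ± 0.13 (SE; limma adjusted p = 4.36e-07). It was -1.29 without replicate 1 of isoform 3, and -0.88 without replicate 2, which ended the call.

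CREB3L3, a membrane-bound transcription factor of hepatocytes and enterocytes, was at 2.43, 6.36 and 4.78 TPM in isoform 3 and between 0.427 and 0.614 TPM in isoform 9. NR1I3, the nuclear receptor CAR that controls drug metabolism genes, was at 2.91, 6.33 and 6.65 TPM in isoform 3 and 1.16, 1.14 and 1.65 TPM in isoform 9. Neither gene overlapped between the lines, and the log2 differences were -1.79 for CREB3L3 and -1.39 for NR1I3 (limma adjusted p = 1.22e-09 and 3.1e-07), and -2.10 and -1.70 without replicate 1. F10 encodes coagulation factor X, made by hepatocytes. It was already present in the parental cells at 8.60 to 9.59 TPM, rose to 15.2, 28.4 and 26.5 TPM in isoform 3, and was at 5.27, 6.12 and 7.45 TPM in isoform 9, below every parental library. The difference between the lines was -1.71 ± 0.14 (SE; limma adjusted p = 4.41e-10), and -1.98 without replicate 1, while isoform 9 minus parental was -0.50 and not called.

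MYO15B, a myosin gene, was at 22.8, 50.8 and 50 TPM in isoform 3 and 10.1, 9.83 and 9.99 TPM in isoform 9, against at most 1.78 TPM in the parental cells. It was called higher than the parental cells in both lines, and the lines differed by -1.86 (limma adjusted p = 6.22e-10), and by -2.23 without replicate 1. LGALS4, the gut lectin galectin 4, was at 1.27, 3.58 and 3.51 TPM in isoform 3 and 0.693, 0.526 and 0.963 TPM in isoform 9. The lines did not overlap and differed by -1.07 ± 0.17 (SE; limma adjusted p = 2.45e-05), and by -1.40 without replicate 1. Its call was lost on leaving out isoform 3 replicate 2 or 3 or isoform 9 replicate 2, where the difference was as small as -0.90, and in a fit of only the groups compared. BAAT, the enzyme that joins bile acids to glycine or taurine and a gene named here after its values were seen, was at 1.91, 4.33 and 4.53 TPM in isoform 3 and 0.652, 0.599 and 1.11 TPM in isoform 9, a difference of -1.31, and of -1.61 without replicate 1.

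Replicate 1 of isoform 3, the library with less HNF4A, had the lowest level of the 3 isoform 3 libraries in all 27 genes of this group. To place it, the log2 distance from the isoform 9 mean (0) to the mean of the other 2 isoform 3 libraries (1) was used as a ruler. Over the 27 genes its median position was 0.53, between 0.29 and 0.83. For the 17 genes of the second group called both ways the median was 1.04, between 0.72 and 1.27, and replicate 1 was the lowest isoform 3 library in 6 of them. Among the other genes called both ways, the 17 lower genes with neither call had a median of 0.83, between 0.51 and 1.07. The 12 higher genes had a median of 0.73, between 0.25 and 1.29. They include the identical TRK-CTT2 rows, which count as 1 observation and all lie at 0.73. The median of the higher genes is that repeated value, so it does not place them between the first and second groups. Of the other higher genes, LOC105376136 lay at 0.25, ICAM1 at 0.26, BTBD11 at 0.38, LOC105374060 at 0.39 and RIBC2 at 0.45. PLA2G7 lay at 0.77 and HPD at 1.29. The differences between the groups were not tested.

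**Figure D3:**
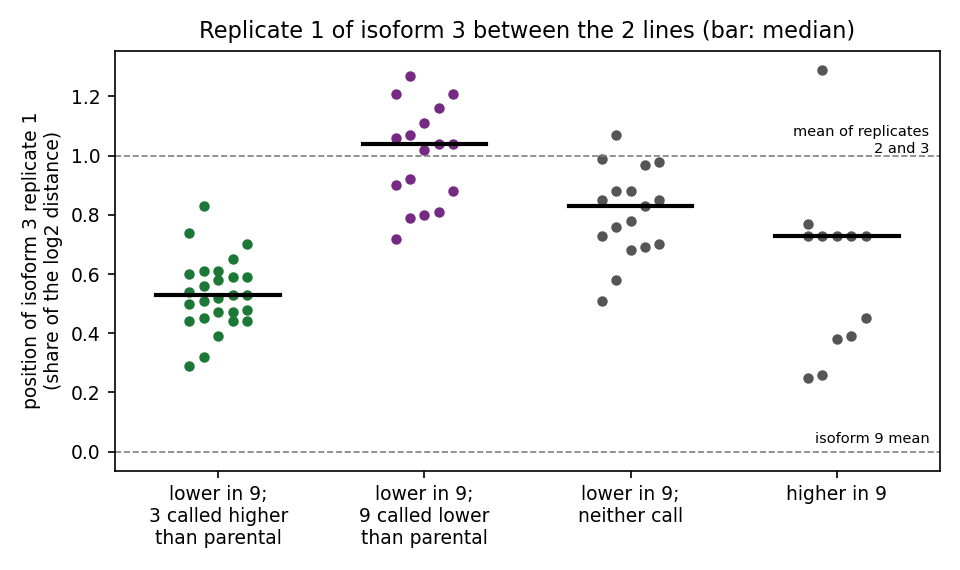
Position of isoform 3 replicate 1 on the log2 distance from the isoform 9 mean (0) to the mean of isoform 3 replicates 2 and 3 (1), 1 point per gene called with and without that library; bars are medians. The first group sits around 0.53 and the second around 1.04.

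In the second group isoform 3 stayed near the parental level and isoform 9 fell below it. PDGFC, a platelet-derived growth factor ligand, was at 11.1, 15 and 16.0 TPM in isoform 3 and 2.11, 2.44 and 2.68 TPM in isoform 9, against 10.2 to 11.6 TPM in the parental cells. No isoform 9 library came near those of the other groups, and the difference between the lines was -2.13 ± 0.12 (SE; limma adjusted p = 8.69e-14), and -2.28 without replicate 1 of isoform 3. FGF19, an intestinal hormone that lowers bile acid synthesis in liver and was named here after its values were seen, was at 9.82, 11.3 and 11.3 TPM in isoform 3 and 2.38, 3.77 and 3.77 TPM in isoform 9. The parental cells had 9.29 to 9.47 TPM, within reach of isoform 3 and above all isoform 9 libraries, and the difference between the lines was -1.47, and -1.53 without replicate 1.

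SUCNR1, the succinate receptor, fell below the parental 6.01 to 6.44 TPM in all 6 libraries, to 3.19, 1.98 and 3.22 TPM in isoform 3 and to 0.175, 0.211 and 0.458 TPM in isoform 9. Only isoform 9 minus parental was called, at -2.5, against -0.95 for isoform 3 minus parental, and the lines differed by -1.55 ± 0.15 (SE; limma adjusted p = 7.61e-09), and by -1.47 without replicate 1. EML1, which encodes a microtubule-binding protein, was at 6.13, 6.43 and 6.82 TPM in isoform 3 and 1.88, 2.34 and 2.56 TPM in isoform 9. These did not overlap and differed by -1.20 ± 0.08 (SE; limma adjusted p = 2.62e-12), and by -1.23 without replicate 1. RERG, a small GTPase of the RAS superfamily, was at 1.20, 1.35 and 1.66 TPM in isoform 3 and at 0.0206, 0 and 0.147 TPM in isoform 9, a difference of -1.18 on this scale, and of -1.25 without replicate 1. It had neither call against the parental cells, where isoform 9 minus parental was -1.0 and just short of the size needed.

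Several of these genes were neighbours on chromosome 11, and their positions were looked at after the values were seen (GENCODE 29, GRCh38). HBE1, annotated at chr11:5268345-5505652, encodes embryonic epsilon globin. It was at 6.75, 5.07 and 3.55 TPM in isoform 3 and at 0.289, 0.262 and 0.263 TPM in isoform 9, a difference of -2.23 ± 0.18 (SE; limma adjusted p = 3.18e-10), and of -2.05 without replicate 1. OR51B5 and OR51B4, olfactory receptor genes inside the same annotated span, differed by -1.71 and -1.12 (-1.65 and -1.09 without replicate 1) and were listed at no more than 0.171 TPM in any isoform 9 library. Their gene models overlap that of HBE1, so reads could have been divided among them in any way, and the 3 are not separate observations. HBB, adult beta globin at chr11:5225464-5229395, was at 33.5, 33.6 and 30.2 TPM in isoform 3 and 29.8, 37.7 and 29.6 TPM in isoform 9. Its libraries overlapped and its difference was -0.01.

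Farther toward the end of the chromosome's short arm, in an interval that includes an imprinted domain, SYT8, TNNI2, LSP1 and IGF2 were all called lower in isoform 9. IGF2, insulin-like growth factor 2 (chr11:2129112-2158658), was at 8.81, 9.00 and 7.68 TPM in isoform 3, 2.39, 2.60 and 3.08 TPM in isoform 9 and 9.73 to 11.0 TPM in the parental cells. No library of 1 group overlapped another group. Isoform 9 was lower than isoform 3 by a log2 difference of -1.37 ± 0.09 (SE; limma adjusted p = 2.7e-12), and -1.34 without replicate 1, and isoform 3 minus parental was -0.26 (limma adjusted p = 0.0273) and not called. SYT8, TNNI2 and LSP1 follow each other between 1828307 and 1892267 and differed by -1.08, -1.29 and -1.36, and by -1.17, -1.42 and -1.45 without replicate 1. H19, the non-coding RNA beside IGF2, was at 9.42, 7.21 and 5.52 TPM in isoform 3 and 3.65, 3.6 and 3.73 TPM in isoform 9, a difference of -0.82 (limma adjusted p = 0.000138) that did not reach the fold needed for a call. Not every gene of the interval moved: CTSD differed by -0.01 and MRPL23 by 0.07. Over all 72 tested genes in the first 5 Mb of chromosome 11 the median difference was -0.06.

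Chromosome 4 showed the widest stretches of one-sided difference. Medians were taken over 317 intervals of 5 Mb with at least 15 tested genes, and the 3 highest medians, 0.24 to 0.31, and the lowest, -0.31, were all on chromosome 4. Over the first 20 Mb, 90 of 97 tested genes were higher in isoform 9 than in isoform 3, with a median of 0.30 and no gene called. From 150 Mb to the end, 67 of 77 were lower, with a median of -0.39. In this second stretch PDGFC and SAP30, a subunit of a histone deacetylase complex, were called, and without replicate 1 of isoform 3 there were 6 called genes and the median was -0.47. The remaining 293 genes of the chromosome had a median of 0.08. Both boundaries were set after the values were seen.

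Library by library, the short-arm stretch lay at medians of -0.16, -0.28 and -0.30 relative to the parental mean in isoform 3 and at 0.03, 0.10 and 0.10 in isoform 9. The long-arm stretch lay at 0.01, 0.22 and 0.26 in isoform 3 and at -0.32, -0.20 and -0.07 in isoform 9. Replicate 1 of isoform 3 was the library of its line nearest the parental cells in both stretches. The lines of isoforms 1 and 2 were also below the parental mean on the short arm, at -0.25 to -0.23 and -0.45 to -0.41, and isoforms 7 and 8 lay between -0.05 and 0.11. The long arm did not divide the lines by promoter in the same way: isoform 2 lay at 0.21 to 0.25 and isoform 7 at -0.42, but isoform 1 at -0.07 to 0.04 and isoform 8 at -0.05 to 0.08. Copy number was not measured, and a difference between lines along the chromosome cannot be told apart here from one of regulation.

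**Figure D4:**
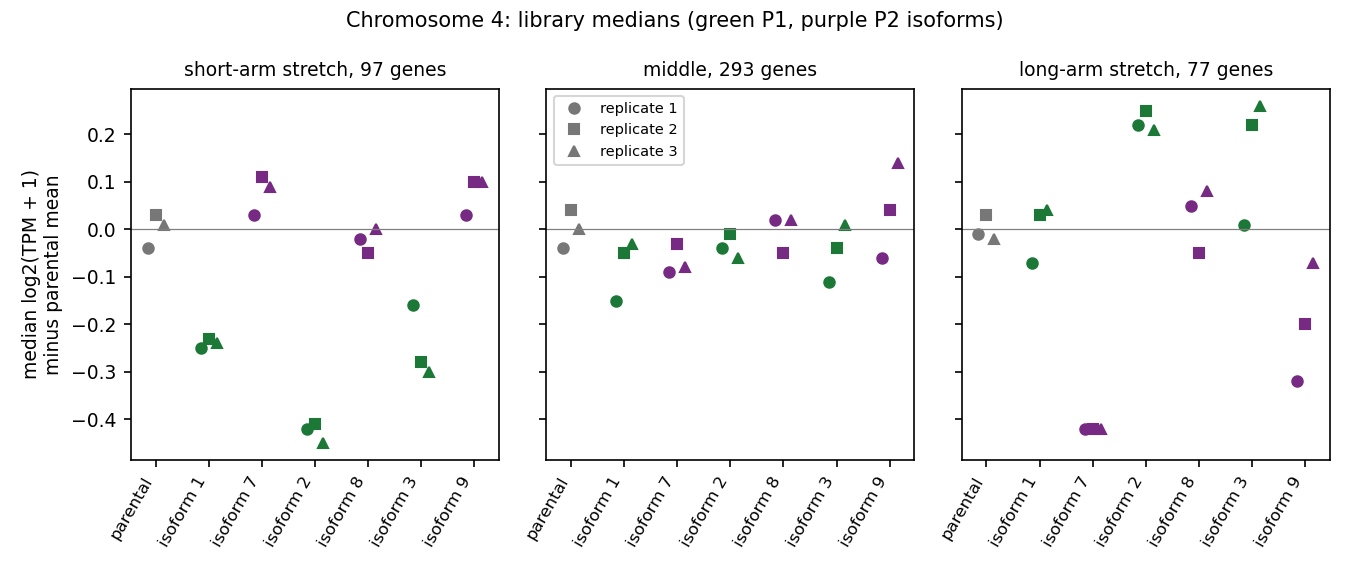
Library medians of log2(TPM + 1) minus the parental mean over 3 stretches of chromosome 4 (97, 293 and 77 tested genes) for the parental cells and 6 lines; symbols give the replicate, green the P1 and purple the P2 isoforms. In the short-arm stretch isoform 3 lies at -0.30 to -0.16 and isoform 9 at 0.03 to 0.10.

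Of the 19 genes higher in isoform 9, 11 were LOC-named genes or small RNAs, as were 11 of the 65 lower genes. The 19 genes came from different patterns. Some were lower in isoform 3 than in the parental cells while isoform 9 stayed near them. ICAM1, the intercellular adhesion molecule that leukocytes bind, was at 3.99, 1.12 and 1.08 TPM in isoform 3, at 5.76, 5.89 and 5.79 TPM in isoform 9 and at 5.80 to 6.68 TPM in the parental cells. The lines did not overlap, and ICAM1 was higher in isoform 9 by 1.28 ± 0.17 (SE; limma adjusted p = 1.97e-06), and by 1.70 without replicate 1 of isoform 3. Its adjusted p was 0.0753 when only the groups compared entered the fit. RIBC2, a protein of cilia and flagella, was at 2.30, 1.08 and 0.693 TPM in isoform 3 and 4.11, 4.69 and 4.00 TPM in isoform 9, a difference of 1.2, and of 1.49 without replicate 1. Leaving out another library gave differences down to 1.01. BTBD11 was at 1.51, 0.385 and 0.396 TPM in isoform 3 and 2.29, 2.54 and 2.99 TPM in isoform 9, a difference of 1.09, and of 1.37 without replicate 1. It was 0.94 and 0.95 without isoform 3 replicate 2 or 3, which ended the call. In each of these genes replicate 1 was the isoform 3 library nearest to isoform 9.

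Others were raised in isoform 9. HPD, the enzyme for an early step of tyrosine breakdown in liver, was at 0.772, 1.28 and 1.13 TPM in isoform 3 and 3.06, 3.64 and 4.32 TPM in isoform 9. It rose by 1.49 over the parental cells in isoform 9, a call, against 0.30 in isoform 3, and the lines differed by 1.18 ± 0.11 (SE; limma adjusted p = 3.49e-09), and by 1.08 without replicate 1. PLA2G7, a secreted enzyme that breaks down platelet-activating factor, was at 8.53, 6.57 and 6.62 TPM in isoform 3, 16.8, 20 and 21.3 TPM in isoform 9 and 11.2 to 12.3 TPM in the parental cells, which lay between the lines. Its difference was 1.31 ± 0.09 (SE; limma adjusted p = 4.53e-12), and 1.42 without replicate 1.

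EREG, the EGF receptor ligand epiregulin, was at 6.76, 9.31 and 9.34 TPM in isoform 3 and 18.7, 19.2 and 19.8 TPM in isoform 9, with 6.51 to 7.08 TPM in the parental cells. It rose in isoform 9 against both, by 1.11 ± 0.10 (SE; limma adjusted p = 1.67e-09) against isoform 3. Without replicate 1 the difference was 0.97 and no longer a call by size, and library weights ended the call too. OAS1, an interferon-induced sensor of double-stranded RNA, was also called higher than the parental cells in isoform 9 and not in isoform 3, with 4.16, 6.19 and 4.95 TPM in isoform 3, 10.1, 11.3 and 12.5 TPM in isoform 9, a difference of 1.02, and 0.91 without replicate 1. The call also ended without isoform 9 replicate 3 (0.95), with median-of-ratios scaling (0.99) and with library weights (0.83). The remaining named genes of this direction were the uncharacterised LOC105374060 and LOC105376136 and 5 lysine tRNA rows, TRK-CTT2-1 to TRK-CTT2-5. These 5 rows hold the same values, at most 2.68 TPM in any library, and count as 1 observation. Leaving out 1 library gave adjusted p-values of up to 0.0906 for the tRNA and 0.179 for LOC105376136.

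Some low or mitochondrial RNAs need to be read with their libraries. TRNV, the mitochondrial valine tRNA, had the most negative difference of the named genes, -2.82 ± 0.60 (SE; limma adjusted p = 0.000973), from 12.8, 8.34 and 8.45 TPM in isoform 3 and 0, 2.43 and 0 TPM in isoform 9, and it was -2.64 without replicate 1 of isoform 3. It was lower in every isoform 9 library, at low TPM. The ribosomal RNA RNR2 was at 4560, 5460 and 6360 TPM in isoform 3 and at 5390, 2550 and 1780 TPM in isoform 9. There replicate 1 of isoform 9 stood with isoform 3, and the difference of -0.90 was not called. Without replicate 1 of isoform 3 it was -1.02 and called (limma adjusted p = 0.0177). The uncharacterised LOC107985288 was another low and uneven row, at 3.65, 4.97 and 2.08 TPM in isoform 3 and 1.19, 0 and 0 TPM in isoform 9, a difference of -1.76 (limma adjusted p = 0.012, and up to 0.0695 leaving out 1 library). TRNF and TRNH were called with all libraries only, at -1.33 and -1.31 (limma adjusted p = 0.0364 and 0.0467), and not without replicate 1 of isoform 3 (0.071 and 0.144). Such RNAs are mostly without long poly(A) tails, and how much reaches a poly(A)-selected library was not measured.

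The gene lists gave few calls, and each count is to be read against the 0.433% of all genes called lower and 0.127% called higher. Of 21 liver and gut genes listed as HNF4A targets, 5 reached the expression filter, and 3 of these, VIL1, F10 and LGALS4, were called lower in isoform 9. A target at low level could pass the filter only through lines where it is high, and 4 of the 21 had a mean of at least 1 TPM in these 2 lines. The members tested without a call were MTTP, which loads lipid onto lipoproteins, at 1.02 TPM in isoform 3 and 1.64 TPM in isoform 9, and APOA1, the main HDL protein, at 0.278 and 0.292 TPM. Among 10 tested brush border genes VIL1 was called, and USH1C, a scaffold that links microvillus tips, joined it without replicate 1 (-1.01; -0.81 with all libraries). SLC9A3R1, the scaffold EBP50, was at 178 TPM ± 36.4 in isoform 3 and 108 TPM ± 8.84 in isoform 9 (SD, n = 3), a difference of -0.70. EZR, the membrane linker ezrin, differed by 0.14, ESPN by -0.28 and EPS8L2 by -0.27. The 10 genes had a median of -0.19 against 0.03 for all genes.

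CIDEB and CIDEC were the only called members among 15 tested lipid droplet and fatty acid activation genes. PNPLA2, the triglyceride lipase of droplets, differed by -0.03, PLIN3 by -0.21, ACSL3 by 0.17 and ACSL4 by 0.12. Of 18 tested gut and liver transcription factors, CREB3L3 and NR1I3 were called lower and 14 were below 0. PPARG differed by -0.13, CEBPB by -0.10, KLF4 by 0.15 and NR5A2 by 0.17. F10 was the one call among 9 coagulation and plasmin genes, where PROS1, protein S, differed by -0.48, PLAU by -0.20, PLAUR by -0.08 and SERPINE2 by 0.15.

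Signalling lists had 1 or 2 calls each. NOTUM, a secreted feedback inhibitor of Wnt and itself a Wnt target, was the call among 13 tested Wnt target genes. It was at 12.8, 11.8 and 9.86 TPM in isoform 3, 3.93, 5.09 and 4.74 TPM in isoform 9 and 15.9 to 16.2 TPM in the parental cells, so both lines were under the parental cells and isoform 9 was under isoform 3. The lines differed by -1.16 ± 0.09 (SE; limma adjusted p = 2.86e-10), and by -1.08 without replicate 1. In this list 11 of 13 genes, NOTUM included, were below 0, with a median of -0.25. Of those without a call, SOX4 differed by -0.65, CCND1 by -0.25, PTK7 by -0.23 and DKK1 by 0.00. Of 10 tested EGF family ligands and receptors, EREG was called higher and NRG1, the neuregulin that activates ERBB3, lower. NRG1 was at 26, 27.4 and 25.4 TPM in isoform 3 and 12.4, 13.9 and 10.3 TPM in isoform 9, a difference of -1.05. It was called without replicate 1 of isoform 3 (-1.06) and lost its call without replicate 3 of isoform 9 (-0.95) and with library weights. AREG, a ligand that lies beside EREG in the genome, was at 39.6 TPM ± 4.61 in isoform 3 and 67.6 TPM ± 2.05 in isoform 9 (SD, n = 3), a difference of 0.76. The receptors EGFR, ERBB2 and ERBB3 differed by 0.24, -0.07 and -0.25.

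OAS1 was the one call among 19 tested rows of interferon-stimulated genes. Of the 19 rows, 14 were below 0, with a median of -0.16. ISG15 was at 199 TPM ± 15.1 in isoform 3 and 125 TPM ± 3.49 in isoform 9 (SD, n = 3), a difference of -0.66, while IFITM3 differed by -0.22 and IFITM2 by -0.16. ICAM1 was the one call among 9 genes of the NF-kB response and chemokine list. NFKBIA differed by -0.17, NFKB2 by 0.13 and CXCL16 by 0.03. No gene was called in the lists for fatty acid oxidation and ketogenesis (16 tested), drug and steroid metabolism (10), epithelial transporters (5), tight junctions (15), mucins (3), p53 targets (17), DNA replication (24), mitosis (21), cholesterol synthesis (21), ATF4 and serine synthesis (17), hypoxia and glycolysis (27) or metallothioneins (4), with or without replicate 1. Their medians lay between -0.28 and 0.21. Of the mitosis genes 2 of 21 were below 0, with a median of 0.15 (0.20 without replicate 1), and of the DNA replication genes 4 of 24, with a median of 0.09 (0.15 without it). In the epithelial-mesenchymal list (16 tested) SPARC was called without replicate 1 only.

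Markers of other cell types were looked at in the same 6 libraries. Summed over 12 colorectal epithelial markers, of which KRT8, KRT18, KRT19 and EPCAM make up most, the level was 3470 to 3540 TPM in isoform 3 and 3200 to 3580 TPM in isoform 9. CEACAM5, GPA33 and CDX1, which also define this epithelium, were at no more than 0.178 TPM. Fibroblast markers summed to 13.1 to 15.1 TPM in isoform 3 and 9.02 to 11.7 TPM in isoform 9, nearly all of it COL1A1, with LUM and POSTN at 0. Endothelial markers summed to at most 3.47 TPM and leukocyte markers to at most 3.08 TPM, with MS4A1 and CD3D at 0. Hepatocyte markers summed to between 17.5 and 25.0 TPM, nearly all of it CPS1. Only 8 epithelial, 1 fibroblast, 1 endothelial, 2 leukocyte and 1 hepatocyte marker reached the expression filter and were tested. None of these was called between the lines.

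Some genes turned on replicate 1 of isoform 3: 37 were called only without it, 29 lower and 8 higher in isoform 9, and 11 only with it. SELENOP, the selenium transport protein of liver, was at 33.3, 76.9 and 83.3 TPM in isoform 3 and 25.5, 30.5 and 43.3 TPM in isoform 9. The lines overlapped with replicate 1 and not without it, and the difference moved from -0.87 to -1.28. IL32, a cytokine gene, was at 14.5, 28.6 and 22.5 TPM in isoform 3 and 10.5, 10.3 and 10.1 TPM in isoform 9, against at most 0.524 TPM in the parental cells, and its difference moved from -0.97 to -1.22. ABAT, which breaks down GABA, moved from -0.97 to -1.23. CTSO, a cathepsin gene in the long-arm stretch of chromosome 4, moved from -0.92 to -1.22, and WFDC21P from -1.0, just under the size needed, to -1.21.

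SPARC, a matrix glycoprotein, was one of the genes that turned on this library. It was at 7.27, 0.326 and 0.426 TPM in isoform 3, at 1.49, 2.02 and 2.78 TPM in isoform 9 and at 15 to 20.4 TPM in the parental cells. All 6 libraries were below the parental ones, and replicate 1 of isoform 3 stood above isoform 9 while the other 2 stood below it. The difference was 0.29 (limma adjusted p = 0.593) with it and 1.15 (limma adjusted p = 7.71e-08) without it.

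The other P2 and P1 lines with matched C-termini, isoform 7 against 1 and isoform 8 against 2, share no library with isoforms 9 and 3 and can be set beside them. HNF4A mRNA lay between 765.1 and 806 TPM in isoform 1, 691.6 and 754 TPM in isoform 7, 577.1 and 655 TPM in isoform 2 and 700.9 and 762.9 TPM in isoform 8, so its level differed between lines here too. Isoform 7 minus 1 had 175 genes called lower (1.17%) and 38 higher (0.253%), and isoform 8 minus 2 had 158 lower (1.05%) and 73 higher (0.487%). Of the 65 genes lower in isoform 9, 37 were also lower in isoform 7 than 1, which is 56.9% of the 65 and 21.1% of the 175. In isoform 8 minus 2 it was 31, which is 47.7% of the 65 and 19.6% of the 158. Without replicate 1 of isoform 3, 51 of the 90 lower genes were lower in isoform 7 than 1 and 44 in isoform 8 than 2. Of the 19 higher genes, 5 were shared with isoform 7 minus 1 and 6 with isoform 8 minus 2.

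Of the 27 genes raised over the parental cells in isoform 3, 24 were lower in both other comparisons and none in neither, whereas of the 18 genes that fell in isoform 9, 1 was lower in both and 14 in neither. Without replicate 1 of isoform 3 it was 33 of 41 and 1 of 18. The median difference of the 27 genes was -1.29 in isoform 9 minus 3, -2.18 in isoform 7 minus 1 and -2.05 in isoform 8 minus 2. For the 18 genes it was -1.42, -0.38 and -0.07.

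Whether isoform 9 minus 3 departs from the other pairs was tested gene by gene, as its difference minus the mean of the other 2 differences. By the same limits 56 genes were above (0.373%) and 36 below (0.24%), and 40 and 31 without replicate 1. With all libraries 6 of the 27 genes were called above and none below, and 11 of the 18 genes were called below and none above. All of these genes were chosen for a low isoform 9 minus 3 difference, which is a term of the departure and tilts it downward, so the counts are a description. LGALS4 differed by -1.07 between isoforms 9 and 3, -2.35 between 7 and 1 and -2.09 between 8 and 2, a departure of 1.15 (limma adjusted p = 0.000171). CREB3L3 departed by 1.18 (limma adjusted p = 5.48e-05): it was at 37.9 TPM ± 4.87 in isoform 1 and 36.8 TPM ± 4.84 in isoform 2 (SD, n = 3), and at 4.53 TPM ± 1.98 in isoform 3 (SD, n = 3). In the P2 lines it was at 3.65 TPM in isoform 7, 4.08 TPM in isoform 8 and 0.524 TPM in isoform 9. The 1 TPM added before taking logs shrinks a difference most at such a low level, so this departure depends on the scale. VIL1 and CIDEB, at -2.24 and -2.55 here, were at -3.18 and -3.45 in isoform 7 minus 1. With all libraries their departures of 0.74 and 0.87 (limma adjusted p = 0.00963 and 0.00492) were not called because of their size only. Without replicate 1 of isoform 3, isoform 9 minus 3 was -1.40 in LGALS4, -2.10 in CREB3L3, -2.60 in VIL1 and -2.93 in CIDEB. The departures of these genes are therefore smaller without that library, and the calls given here are those with all libraries. CLRN3 departed by -0.37 (limma adjusted p = 0.296), and by more in that direction without replicate 1, where isoform 9 minus 3 was -3.07.

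In the other direction, IGF2 differed by -0.31 between isoforms 7 and 1 and 0.01 between 8 and 2, a departure of -1.22 (limma adjusted p = 1.76e-09). Its level was already low in those lines, 2.42 TPM ± 0.198 in isoform 1, 1.76 TPM ± 0.132 in isoform 7, 4.19 TPM ± 0.231 in isoform 2 and 4.22 TPM ± 0.114 in isoform 8 (SD, n = 3), against 8.50 TPM ± 0.713 in isoform 3. Isoform 3 had the highest mean of these 6 lines. EML1 was at 1.99 TPM ± 0.173 in isoform 1, 2.35 TPM ± 0.216 in isoform 7, 3.38 TPM ± 0.229 in isoform 2 and 5.33 TPM ± 0.448 in isoform 8 (SD, n = 3), and departed by -1.55 (limma adjusted p = 4.94e-13). PDGFC differed by -2.18 between isoforms 7 and 1 and by 0.63 between 8 and 2, and departed by -1.35 from their mean. SUCNR1 and RERG were higher in isoform 8 than 2, by 1.44 and 2.06, and departed by -2.07 and -1.85. HBE1 was at 2.12 TPM ± 0.693 in isoform 1, 0.910 TPM ± 0.0321 in isoform 7, 1.20 TPM ± 0.398 in isoform 2 and 1.07 TPM ± 0.361 in isoform 8 (SD, n = 3), all under the parental level, and departed by -1.85.

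**Figure D5:**
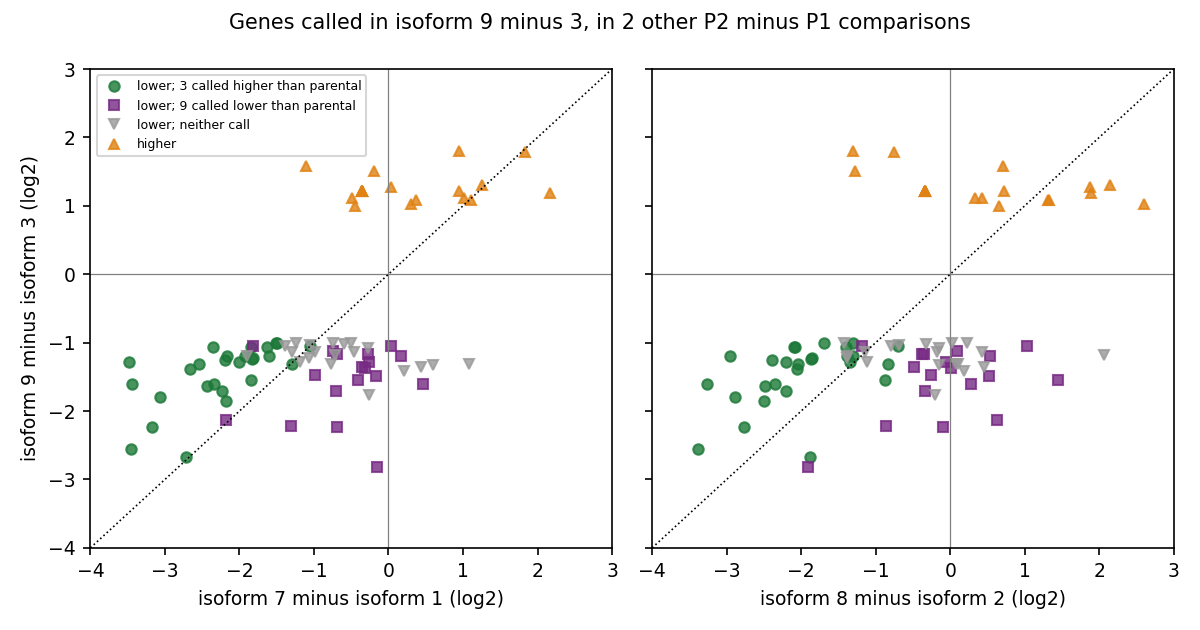
The 84 genes called in isoform 9 minus isoform 3 (vertical axis, log2) against the same genes in isoform 7 minus 1 (left) and isoform 8 minus 2 (right); the dotted line marks equal differences. Genes raised over the parental cells in isoform 3 (green) lie mostly left of the line, at a median of -2.18 and -2.05, and genes that fell in isoform 9 (purple) lie around -0.38 and -0.07.

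Promoter sequence was available from RefSeq (GRCh38.p14) for some of these genes, as windows of 300 bases from 250 before to 50 after a start. They were searched on both strands for CAAAGTCCA, a spelling of the HNF4A response element, and separately for CAAAGTTCA, a spelling that other nuclear receptors also use. They differ at 1 base, so no stretch of 9 bases matches both. The first was in 0.384% of all 35116 windows and the second in 0.296%. Counted by gene, the first was in 0.472% of the 27305 genes with a window and the second in 0.366%. Of the 27 genes raised in isoform 3, 20 had a window, or 74.1%, under the 80% needed for a share, so a share is void for this and the smaller sets. The first was found in 5 of these 20 genes and the second in 1. Of the 18 genes that fell in isoform 9, 4 had a window and none held either spelling, which says only that these letters are not in those windows. The 6 stretches are printed 5′ to 3′ on the strand of the gene, because these genes moved together, with the match in capitals (TGGACTTTG is the first spelling on the other strand).
CIDEB, chr14:24307998-24308058, minus strand: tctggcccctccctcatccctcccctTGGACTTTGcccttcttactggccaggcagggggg
F10, chr13:113122771-113122831, plus strand: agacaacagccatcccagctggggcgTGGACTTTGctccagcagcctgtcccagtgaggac
GPR35, chr2:240605369-240605429, plus strand: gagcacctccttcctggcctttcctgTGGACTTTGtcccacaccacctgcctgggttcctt
RAB17, chr2:237590708-237590768, minus strand: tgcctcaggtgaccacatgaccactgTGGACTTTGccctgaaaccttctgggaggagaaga
SDCBP2, chr20:1313660-1313720, minus strand: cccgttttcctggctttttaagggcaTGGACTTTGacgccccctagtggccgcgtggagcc
CLRN3, chr10:127892956-127893016, minus strand: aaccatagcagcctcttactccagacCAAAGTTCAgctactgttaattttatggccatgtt
The match began 55 bases before the start in CIDEB, 49 in CLRN3, 35 in GPR35, 21 in SDCBP2, 8 in RAB17 and 2 in F10. In isoform 3, GPR35, a G protein-coupled receptor of the gut, was at 4.76, 8.24 and 8.82 TPM, against 2.35, 1.85 and 2.97 TPM in isoform 9. RAB17, a trafficking GTPase of polarised epithelium, was at 36.2, 53.8 and 54.2 TPM in isoform 3 and 23.5, 21.4 and 24.1 TPM in isoform 9, near the parental 21.0 to 23.4 TPM. SDCBP2, syntenin 2, was at 2.88, 6.24 and 6.51 TPM in isoform 3 and at 1.14, 0.598 and 1.19 TPM in isoform 9. The lines did not overlap for any of GPR35, RAB17 and SDCBP2, which differed by -1.26, -1.01 and -1.60, and by -1.5, -1.20 and -1.91 without replicate 1. RAB17 lost its call without isoform 3 replicate 2 or 3 or isoform 9 replicate 2, at -0.96 to -0.92. A match is a description of the letters and not of binding, which was not measured in the libraries used here.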

How the data were processed

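The authors deposited 1 table per group with TPM per library. Per the submitters' processing notes, the tools included Trimmomatic 0.36, FastQC 0.11.5, kallisto 0.44.0 and DESeq2 1.22.2, and the build GRCh38.p12; which tool made which column is not stated. TPM keeps no depth, so no interval for counting error is given. The authors' deposited tables hold a mean of normalised counts, which summed to 54770651 for isoform 3 with the parental cells and 52607952 for isoform 9, and other columns of theirs were not used. TPM columns of the 39 libraries were joined and the 12 HNF4A isoform rows were left out of the tests, which left 45434 rows. A linear model per gene (limma 3.58.1 run under R 4.3.3; lmFit, then eBayes using a trend) took log2(TPM + 1) as its response. Genes entered if their mean over the 39 libraries reached 1 TPM: 15002 genes, 13 groups, 26 residual degrees of freedom and a median residual SD of 0.0936. Tables and figures were made in Python 3.11.15. The fit was tested on simulated data.

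Per the labels, replicate numbers exist for 33 libraries. The isoform classes (P1, P2, short C-terminus) follow the standard nomenclature. Libraries had 27892 to 30553 rows above 0, and each correlated at 0.995 or more with another of its group. Of the tested rows, 77 repeat another. Genes were named by a rule: the 12 highest and 12 lowest differences among genes called with and without isoform 3 replicate 1, small RNA families aside by name (the names TRNV and TRK-CTT2 were not covered); called members of the gene lists and up to 4 uncalled members of a list described; the 5 largest called only without that replicate; and the 5 with the smallest p for the departure from the other pairs. Chosen after their values were seen were SYT8, TNNI2, LSP1, OR51B4, H19, CTSD, MRPL23, HBB, FGF19, BAAT, GPR35, RAB17, SDCBP2, SAP30, RNR2, TRNF and TRNH. Some items are not reported here. The members and lists were chosen with earlier results of these data known. Alternatives tried were another pseudocount, filters, scaling, library weights, a replicate block, only the groups compared and leaving out each library.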

Additional observations from a re-analysis of the deposited data

Results flagged for a closer look

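Genes named above are listed here where isoform 9 minus isoform 3 differed from the mean of isoform 7 minus 1 and isoform 8 minus 2 by the limma test of that difference (adjusted p under 0.05 and a log2 size of at least 1). Below the other pairs were SUCNR1 (-2.07), TRNH (-1.89), RERG (-1.85), HBE1 (-1.85), TRNF (-1.56), EML1 (-1.55), PDGFC (-1.35), IGF2 (-1.22), OR51B5 (-1.19) and TNNI2 (-1.13). Above them were GPR35 (1.03), EREG (1.14), LGALS4 (1.15), CREB3L3 (1.18), WFDC21P (1.33), the identical rows TRK-CTT2-1 to TRK-CTT2-5 (1.56) and SDCBP2 (1.75). MVP (1.37) and APOA1 (2.03) were above them too, APOA1 at 0.278 TPM in isoform 3 and 0.292 TPM in isoform 9. Each of the 6 isoforms in this test is 1 line, and the lines differ in HNF4A level, so line, level and form cannot be told apart. Called genes were chosen for a large isoform 9 minus 3 difference, which is a term of this test. The log2(TPM + 1) scale shrinks differences at low TPM, so a departure can also follow from a gene's level, as for CREB3L3.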

How the results depend on the processing

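With a 5 TPM filter isoform 9 minus 3 had 42 calls (6 higher, 36 lower), with a pseudocount of 0.1 it had 156 (30, 126), with library weights 244 (90, 154) and with no minimum fold change 2812 (1430, 1382). The weights did not reach the fitting tolerance. Higher calls fell to 12 with no filter and to 12 with only the groups compared. Leaving out 1 library gave 69 to 110 calls, 8 to 23 higher and 56 to 90 lower; the higher calls were 11 without isoform 9 replicate 1 and 8 without its replicate 3. For isoform 7 minus 1 the 5 TPM filter, the pseudocount and no minimum fold gave 136, 345 and 5995, for isoform 8 minus 2 140, 387 and 6636, and for the departure from the other pairs 39, 141 and 3026 (weights 196; 71 to 124 leaving out 1 library). Isoform 9 minus parental gave 74, 253 and 3404 (weights 232). Isoform 3 minus parental gave 199 with the pseudocount, 3896 with no minimum fold, 231 with weights, 181 without its replicate 1 and 95 to 181 leaving out 1 library. The cause was not tested. The HNF4A difference was 277.6 TPM, and 145.7 to 359 TPM leaving out 1 library.

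With the replicate block 82 genes were called, 18 higher and 64 lower, all among the 84. Same-numbered isoform 3 and 9 libraries had residual correlations of 0.0833, 0.0745 and 0.153, so the numbers were not taken as pairs, though each library correlated best with its own number. Of 45 named genes called, none reversed in the alternatives run, but calls were lost by 13 and 11 without isoform 3 replicate 2 and 3, 10 without isoform 9 replicate 3, 9 with library weights, 8 with no filter, 7 with only the groups compared and 1 to 6 in other alternatives that lost any. Among genes without a call that changed sign, leaving out 1 library gave SPARC -0.17 to 1.15 (-0.12 without isoform 3 replicate 3), PNPLA2 -0.09 to 0.04, CXCL16 -0.04 to 0.12, CTSD -0.07 to 0.05 and ERBB2 up to 0.01. With library weights CTSD was 0.06 and HBB 0.17. The limma p-values rest on a spread pooled over 13 groups, which can understate that of isoform 3, where replicate 1 stood apart. The largest limma adjusted p of any alternative was 0.0122 for CLRN3 and CIDEB, 0.0133 for VIL1 and 0.0753 for ICAM1. TPM gives no depth, so precision at low TPM is unknown.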
